A study of Homo sapiens with 6 samples.

Results

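MALAT1, NEAT1 and 8 host genes of small nucleolar RNAs (snoRNAs) were followed in MDA-MB-231 cells after depletion of the mitotic kinase NEK2. The 10 genes were taken by symbol from the deposited gene table, which lists 74852 genes. Tests covered the 18717 genes whose mean over all libraries reached 10 normalized counts. Each of the 10 genes had 1 row in the table, and all 10 passed this filter with a mean above it in each group. The members were GAS5, SNHG1, SNHG5, SNHG8, SNHG12, ZFAS1, EPB41L4A-AS1 and DANCR as hosts, and MALAT1 and NEAT1 as abundant nuclear RNAs.

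MDA-MB-231 is an established mesenchymal line of triple-negative breast cancer (TNBC). Cells were transfected in 2 rounds with Lipofectamine RNAiMAX and either a control siRNA pool (si-CTRL, n = 3 libraries) or a siRNA pool against NEK2 (si-NEK2, n = 3 libraries). According to the sample records the cells of both groups were collected 24 h after the second round, whereas the methods of the study give a longer time, and RNA with a polyA tail was sequenced. Each group rests on 1 siRNA pool in 1 cell line, so effects of NEK2 loss and of the pool itself cannot be told apart. The methods speak of a harvest in triplicate, but whether the 3 libraries of a group came from separately transfected cultures is not stated in the sources used here, so p-values measure the spread between libraries, which may be technical. In bulk RNA, a change in the RNA of each cell and a change in the make-up of the cell population cannot be told apart.

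The reads recovered from the deposited values ranged from 52625492 to 87454509 per library, and 1 read was worth 0.818 to 1.25 normalized counts. NEK2 measured 3702, 3323 and 3290 normalized counts in the si-CTRL libraries and 284, 362 and 388 in the si-NEK2 libraries, that is 10.0% of the control mean (log2 fold change -3.32 ± 0.12 (SE), adjusted p = 1.86e-06). VIM, which encodes the mesenchymal filament vimentin, had a mean of 147997 normalized counts, while CDH1, ESR1, PGR and EPCAM each had a mean under 10. ERBB2, which encodes the receptor HER2, had a mean of 3421 and a log2 fold change of 0.53 (adjusted p = 0.00744), and the adhesion receptor CD44, with a mean of 42786, fell (-0.76, adjusted p = 0.00332). The library of si-CTRL replicate 1 stood apart in its RNA make-up. A mitochondrial row held 1.91% of its reads against 0.835 to 1.07% elsewhere, and its share of reads on the ribosomal RNA row RNA45S5 was the lowest, at 1.84% against up to 3.17%. These rows were picked after their values were seen, neither differed between groups by limma (adjusted p = 0.65 and 0.712), and without this library the same 5 genes passed the test described below.

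MALAT1 is a long RNA of nuclear speckles, the storage compartments of splicing factors, and NEAT1 is the RNA scaffold around which paraspeckle proteins assemble. Mature MALAT1 and the long form of NEAT1 have an end cut by RNase P, which is folded into a triple helix and lacks a conventional polyA tail. Most of the host genes work differently: their exons are spliced into a noncoding RNA, while their introns are trimmed to snoRNAs, which guide the modification of ribosomal and other RNAs. The spliced RNAs of several such hosts are known to carry short reading frames, to be bound by ribosomes and to be degraded by nonsense-mediated decay. GAS5, SNHG1, ZFAS1 and several others are also members of the 5-prime terminal oligopyrimidine (TOP) class, whose transcripts begin with a run of pyrimidines and include the mRNAs of the translation machinery.

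All 10 genes had a higher mean in the si-NEK2 group. A gene was called with the thresholds of the study, that is when p did not exceed 0.05 and the groups differed 1.5-fold or more, in a limma fit on log2(normalized counts + 1). By this rule 5 of the 10 genes rose (SNHG5, ZFAS1, SNHG8, GAS5 and MALAT1) and 0 fell, where 8.23% of all tested genes rose and 14.3% fell. An adjusted p of at most 0.05 was reached by 8 of the 10 genes, all higher in si-NEK2, against 21.8% of all tested genes that were higher and 21.3% that were lower at this threshold. The si-NEK2 libraries lay above every si-CTRL library for 8 of the 10 genes, as they did for 28.2% of all tested genes. The median log2 fold change was 0.59 over the 10 genes and 0.01 over all tested genes.

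**Figure D1:**
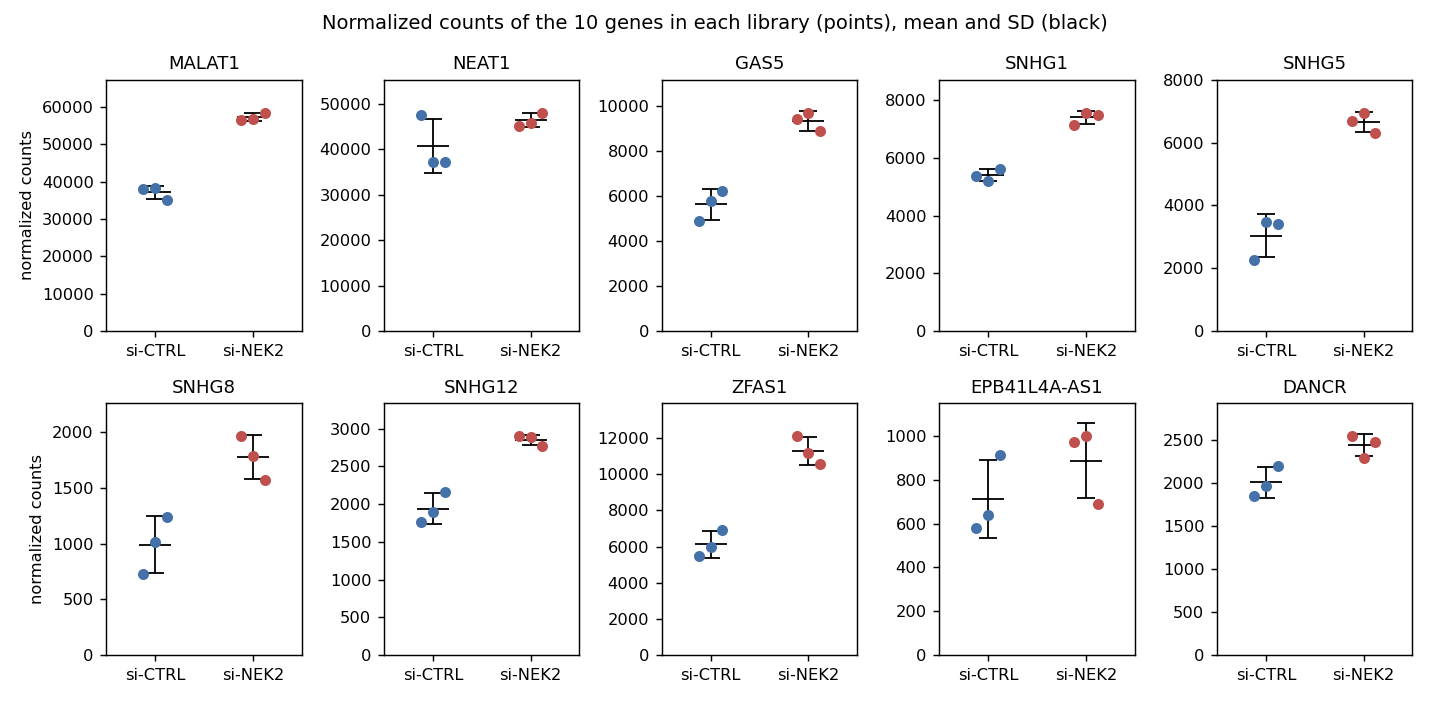
Normalized counts (y axes, each starting at 0) of the 10 genes in the 3 si-CTRL libraries (blue points) and the 3 si-NEK2 libraries (red points), with the group mean and SD in black. The groups are separate for 8 genes, and overlap for NEAT1 and EPB41L4A-AS1.

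SNHG5, the host of SNORD50A and SNORD50B, showed the largest change among the 10 genes. It measured 2258, 3462 and 3401 normalized counts in si-CTRL and 6698, 6958 and 6308 in si-NEK2. The lowest si-NEK2 library was thus far above the highest control, although si-CTRL replicate 1 was itself well below the other controls. The group means were 3040 ± 678 and 6655 ± 327 (SD, n = 3 each), a 2.19-fold rise (log2 fold change 1.16 ± 0.15 (SE), adjusted p = 0.000431). SNHG5 was the one gene among the 10 whose fold change exceeded 2. Without si-CTRL replicate 1, its log2 fold change was 0.95.

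ZFAS1, the host of SNORD12, SNORD12B and SNORD12C, had 5472, 5988 and 6940 normalized counts in si-CTRL. It had 12112, 11196 and 10590 in si-NEK2. The groups were well separated, with means of 6133 ± 745 and 11300 ± 766 (SD, n = 3 each). The rise was 1.84-fold (log2 fold change 0.89 ± 0.10 (SE), adjusted p = 0.000169).

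SNHG8, the host of the H/ACA snoRNA SNORA24, measured 726, 1010 and 1236 normalized counts in si-CTRL and 1965, 1791 and 1574 in si-NEK2. The spread within each group was wide for this gene, but the groups did not overlap. Means of 991 ± 255 and 1777 ± 196 (SD, n = 3 each) gave a 1.79-fold rise (log2 fold change 0.87 ± 0.18 (SE), adjusted p = 0.0043). The log2 fold change was 0.66 without si-CTRL replicate 1, the lowest control.

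GAS5, named for its accumulation in growth-arrested cells, hosts 10 of the listed box C/D snoRNAs, which guide ribose methylation. It measured 4878, 5774 and 6212 normalized counts in si-CTRL and 9423, 9701 and 8863 in si-NEK2. Every si-NEK2 library was well above the highest control, and the means of 5621 ± 680 and 9329 ± 427 (SD, n = 3 each) differed 1.66-fold (log2 fold change 0.74 ± 0.09 (SE), adjusted p = 0.00037). The row of GAS5 also carries the symbols SNORA103, SNORD47, SNORD76 and SNORD80, whose reads cannot be separated from those of the host.

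The bases around the annotated start listed for each of these 4 genes are shown, because TOP transcripts are defined by their first bases. Each line gives 20 bases before and 20 bases from the annotated start, from RefSeq promoters on GRCh38.p14, and capitals mark an unbroken run of C and T of at least 5 bases that opens with C within 5 bases of the start.
SNHG5: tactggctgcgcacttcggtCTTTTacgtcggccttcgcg
ZFAS1: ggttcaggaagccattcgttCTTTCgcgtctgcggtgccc
SNHG8: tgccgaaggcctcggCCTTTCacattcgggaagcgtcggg
GAS5: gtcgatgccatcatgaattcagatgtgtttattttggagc
The windows lie at chr6:85678714-85678753 on the minus strand for SNHG5, chr20:49278622-49278661 on the plus strand for ZFAS1, chr4:118278742-118278781 on the plus strand for SNHG8 and chr1:173869026-173869065 on the minus strand for GAS5. The transcribed strand alone was searched. A run was found for 5 of the 8 hosts, namely SNHG5, SNHG8, SNHG12, ZFAS1 and DANCR, and in 21.1% of 35116 promoters searched in the same way. The run of SNHG8 has 6 bases and opens 5 bases before the start, so that only its last base lies at the start. MALAT1, which is not a host, also had a run of 6 bases by this rule at the first of its listed starts. That run too opens 5 bases before the start. The C and T letters directly before it were not counted, because they lie farther from the start. No such run was found at the listed start of GAS5, SNHG1 or EPB41L4A-AS1, which says only that these letters are not in the window around that start. GAS5 and SNHG1 are members of the TOP class all the same. Whether a listed start is the one used in these cells was not tested, and the starts were not matched to the measured rows. Among the 5 hosts with a run at the listed start, 3 rose, and among the 3 without one there, GAS5 rose, beside 8.23% of all tested genes. As GAS5 and SNHG1 are in the TOP class, this split does not compare TOP genes with others, and no difference was tested.

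SNHG12 and SNHG1 were higher in every si-NEK2 library but did not reach a fold change of 1.5. SNHG12, the host of SNORD99 and of the H/ACA snoRNAs SNORA16A, SNORA44 and SNORA61, measured 1762, 1894 and 2165 normalized counts in si-CTRL and 2901, 2885 and 2770 in si-NEK2. The means of 1940 ± 205 and 2852 ± 71.6 (SD, n = 3 each) differed 1.47-fold, just under the threshold (log2 fold change 0.56 ± 0.09 (SE), adjusted p = 0.00104). It passed without si-CTRL replicate 3, the highest control, where its log2 fold change was 0.64, and with upper quartile scaling, where it was 0.60.

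SNHG1, a host of 8 box C/D snoRNAs among those listed, measured 5387, 5201 and 5621 normalized counts in si-CTRL and 7143, 7569 and 7493 in si-NEK2. Its libraries agreed closely within each group, with means of 5403 ± 211 and 7402 ± 227 (SD, n = 3 each). The 1.37-fold difference (log2 fold change 0.45 ± 0.06 (SE), adjusted p = 0.000586) was much larger than the spread between libraries. SNHG1 was also the one host that was not lowest in si-CTRL replicate 1, the library with the high mitochondrial share; the other 7 hosts had their lowest value there.

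DANCR, the host of SNORA26, measured 1850, 1960 and 2198 normalized counts in si-CTRL and 2538, 2290 and 2472 in si-NEK2. The highest control was only slightly below the lowest si-NEK2 library. Means were 2003 ± 178 and 2434 ± 129 (SD, n = 3 each), a 1.22-fold difference (log2 fold change 0.28 ± 0.09 (SE), adjusted p = 0.0255). The adjusted p exceeded 0.05 when si-CTRL replicate 2 (0.0686), si-NEK2 replicate 1 (0.0965) or si-NEK2 replicate 3 (0.0782) was left out, and it was 0.177 when libraries were scaled to equal totals.

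EPB41L4A-AS1, the host of SNORA13, was the lowest of the 10 genes. It measured 580, 639 and 915 normalized counts in si-CTRL and 975, 1000 and 692 in si-NEK2. The groups overlapped, because si-CTRL replicate 3 was high and si-NEK2 replicate 3 was low. The means of 711 ± 179 and 889 ± 171 (SD, n = 3 each) were not distinguishable at this spread (log2 fold change 0.33 ± 0.19 (SE), adjusted p = 0.201). Without si-CTRL replicate 3, the log2 fold change was 0.53 (adjusted p = 0.041). Its row lies wholly within that of EPB41L4A (2.13 to 21.7 normalized counts per library).

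MALAT1 rose to 1.54 times its control level. It measured 38132, 38223 and 35022 normalized counts in si-CTRL and 56560, 56792 and 58510 in si-NEK2. The libraries of each group lay close together and the groups were far apart, with means of 37126 ± 1822 and 57287 ± 1065 (SD, n = 3 each; log2 fold change 0.63 ± 0.06 (SE), adjusted p = 0.000112). MALAT1 was past the 1.5-fold threshold by a narrow margin, and lost the call when libraries were scaled to equal totals (log2 fold change 0.50, adjusted p = 0.000391) or by quantiles (0.45, adjusted p = 0.000725). Equal totals lowered the median log2 fold change of all tested genes to -0.115, and relative to that median MALAT1 was 0.61 higher, as it was relative to the median of the fit with the deposited scaling. With quantile scaling MALAT1 was 0.40 above the median of all tested genes, which is under the 1.5-fold threshold. Mature MALAT1 has no conventional polyA tail, so in RNA selected for such tails these values cover only the part that was captured.

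NEAT1 did not pass the test. It measured 47529, 37245 and 37289 normalized counts in si-CTRL and 45091, 45848 and 48057 in si-NEK2. The value of si-CTRL replicate 1 lay within the range of the si-NEK2 libraries, while the other 2 controls lay below it. Means were 40687 ± 5925 and 46332 ± 1541 (SD, n = 3 each; log2 fold change 0.20 ± 0.10 (SE), adjusted p = 0.139). Without si-CTRL replicate 1 the log2 fold change was 0.31, still under 1.5-fold, and the adjusted p was 0.000372. With quantile scaling the log2 fold change was 0.02, below the median of all tested genes by 0.02.

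The row of NEAT1, which it shares with MIR612, is not specific to the gene. It spans chr11:65188828-65836382 on hg19, or 647555 bases, whereas the longest GENCODE transcript of NEAT1 has 22743 bases. Within this span lie 28 other tested genes with a symbol, MALAT1 among them. Of these, 1 rose, which was MALAT1 itself, and 3 fell, beside 8.23% and 14.3% of all tested genes. The median log2 fold change of these 28 genes was 0.07. How reads of these genes were assigned is not given in the sources used here, so the values of the NEAT1 row may include reads from other genes of the region. The highest mean among the 28, that of the actin-severing factor CFL1, was 82465 normalized counts, above the mean of the NEAT1 row, so that the row did not hold all of those reads.

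**Figure D2:**
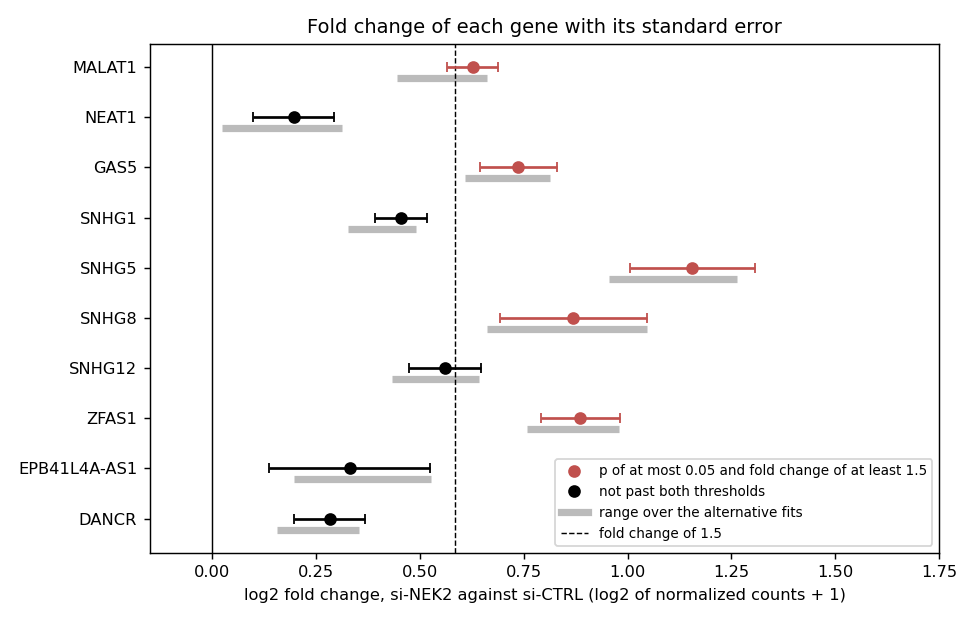
Log2 fold change of each gene in si-NEK2 against si-CTRL (x axis, points, with the standard error as bars), red where both thresholds were passed, with the range over the alternative fits in grey and the fold change of 1.5 as a dashed line. SNHG5 lies farthest to the right at 1.16, and the grey ranges of MALAT1 and SNHG12 cross the dashed line.

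Compared with each other per kilobase of the longest GENCODE v29 transcript, ZFAS1 had the highest level of the 10 genes in both groups. On this scale its mean level was 5705 normalized counts per kilobase in si-CTRL and 10511 in si-NEK2. In si-CTRL it was followed by MALAT1 (4263), GAS5 (3311), SNHG5 (2946), DANCR (2215), SNHG1 (1952), NEAT1 (1789), SNHG8 (1474), SNHG12 (971) and EPB41L4A-AS1 (240 normalized counts per kilobase). In this order the libraries of GAS5 overlapped those of SNHG5, as did SNHG5 and DANCR, SNHG1 and NEAT1, NEAT1 and SNHG8, and SNHG8 and SNHG12. In si-NEK2, SNHG5 moved past GAS5 (6448 against 5494 normalized counts per kilobase, with no overlap) and was level with MALAT1 (6579, with overlap). The level of SNHG8 (2644) exceeded that of NEAT1 (2037) in si-NEK2, again with no overlap. The transcript length actually expressed was not measured, and the level of the NEAT1 row is subject to the limit given above. NEAT1 was divided by the 22743 bases of its longest transcript. The long form has no conventional polyA tail, so whether that length applies to the RNA captured here is not known. A shorter length would raise NEAT1 on this scale. Its place in the order, and ZFAS1 being highest, thus depend on the length chosen.

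The 10 genes together held 0.165, 0.156 and 0.153% of all reads in the si-CTRL libraries and 0.203, 0.203 and 0.206% in the si-NEK2 libraries. Every si-NEK2 library was above every control, with means of 0.158 ± 0.00622% and 0.204 ± 0.00187% (SD, n = 3 each). MALAT1 and NEAT1 accounted for 69.9 to 78.9% of these reads.

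The introns of the 8 hosts encode 30 listed snoRNAs, of which 12 share the row of their host. Of the other 18, 16 passed the filter and 2 had a mean under 10. Of the 16 tested, 3 rose (SNORD99, SNORD78 and SNORA24) and 1 fell (SNORA26), beside 8.23% and 14.3% of all tested genes. The median of the 16 was 0.52 (log2 fold change). An adjusted p of at most 0.05 was reached by SNORD99 (log2 fold change 1.08 ± 0.36 (SE), adjusted p = 0.0399) and SNORD78 (0.81 ± 0.28 (SE), adjusted p = 0.0477), and not by SNORA24 (0.69, adjusted p = 0.0581) or SNORA26 (-0.76, adjusted p = 0.062). SNORA24 was under 1.5-fold with equal totals (0.57), as was SNORA26 with quantile scaling (-0.58). snoRNAs have no polyA tail and are short, so these rows hold few reads, and whether a read is from a mature snoRNA, an unspliced host or an overlapping exon was not determined.

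The snoRNAs of 3 contrasting hosts are shown to place these rows, read from GENCODE v29 transcripts on GRCh38. For the box C/D snoRNAs SNORD50B of SNHG5 and SNORD12 of ZFAS1, capitals mark the C box (TGATGA) and the D box (CTGA), the motifs bound by the core proteins. For the H/ACA snoRNA SNORA26 of DANCR, capitals mark the ACA triplet, which lies 3 bases from the end.
SNORD50B: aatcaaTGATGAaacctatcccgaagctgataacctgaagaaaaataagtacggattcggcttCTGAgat
SNORD12: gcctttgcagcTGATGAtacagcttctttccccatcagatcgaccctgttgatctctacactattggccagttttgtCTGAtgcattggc
SNORA26: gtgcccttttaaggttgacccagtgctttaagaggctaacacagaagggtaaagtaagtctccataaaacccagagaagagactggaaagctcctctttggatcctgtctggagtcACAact
They lie at chr6:85677589-85677658 on the minus strand, chr20:49280683-49280772 on the plus strand and chr4:52713249-52713370 on the plus strand, and are 70, 90 and 122 bases long.

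Summed over the separate snoRNA rows of each host, 6 of the 8 hosts had higher snoRNA signal in every si-NEK2 library than in any control, 1 had lower signal and 1 overlapped, beside the 28.2% of all tested genes that were higher in every si-NEK2 library. The sums held 8 to 330 reads per library. With 3 libraries against 3, an exact two-sided permutation test cannot go below p = 0.1, and each of the 7 separated sums had this value.

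For GAS5, 7 snoRNA rows summed to 177, 207 and 224 normalized counts in si-CTRL and 270, 290 and 290 in si-NEK2. The sum was 1.40 times higher in si-NEK2, against 1.66 times for the host. For ZFAS1, 3 rows summed to 75.0, 108 and 111 in si-CTRL and 144, 127 and 125 in si-NEK2, which is 1.34 times higher, against 1.84 times for the host. In both cases the snoRNA rows were higher by a smaller factor than the host row.

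The 2 rows of SNHG5 summed to 27.5, 18.4 and 32.3 normalized counts in si-CTRL and 48.3, 38.0 and 49.1 in si-NEK2, a ratio of 1.73. SNORA24 of SNHG8 measured 33.7, 21.3 and 20.9 in si-CTRL and 36.8, 42.5 and 42.7 in si-NEK2, a ratio of 1.61. The 2 rows of SNHG1 had a ratio of 1.49, and SNORD99, the one separate row of SNHG12, a ratio of 2.16. These last 2 exceeded the ratios of their hosts, but no difference between a host and its snoRNA rows was tested.

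The rows of DANCR and of its snoRNA differed in opposite directions. SNORA26 measured 33.7, 24.2 and 23.8 normalized counts in si-CTRL and 13.1, 18.98 and 14.9 in si-NEK2, so that all si-NEK2 libraries were below all controls while the host was above them. The mean was 27.2 ± 5.64 in si-CTRL and 15.7 ± 3.01 in si-NEK2 (SD, n = 3 each), or 0.575 of the control, on 14 to 27 reads per library. SNORA13 of EPB41L4A-AS1 overlapped between groups, with means of 17.2 ± 3.30 and 12.5 ± 2.41 normalized counts (SD, n = 3 each; exact two-sided permutation p = 0.2).

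**Figure D3:**
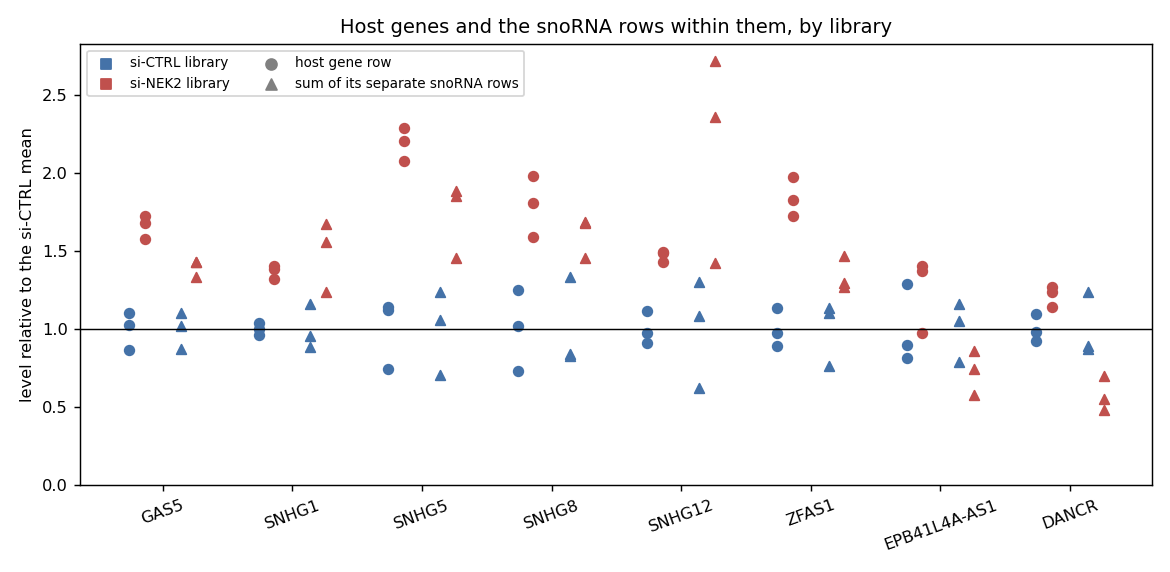
Level of each host gene row (circles) and of the sum of its separate snoRNA rows (triangles) in each library, relative to the si-CTRL mean of the same quantity (y axis, linear, starting at 0), in blue for si-CTRL and red for si-NEK2. For DANCR the circles of si-NEK2 lie above 1 and the triangles below it, at a mean ratio of 0.575.

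The genes nearest to the 10 genes or overlapping them numbered 23, leaving out NEAT1, overlapping snoRNA rows and the overlaps with the NEAT1 row. Of the 23, 2 rose, 2 fell and 19 did neither. These counts are to be read beside the 8.23% of all tested genes that rose and the 14.3% that fell. GAS5-AS1, an antisense RNA whose row overlaps that of GAS5 by 40 bases, fell from 31.2, 29.1 and 38.0 normalized counts to 10.6, 17.2 and 16.0 (log2 fold change -1.13 ± 0.29 (SE), adjusted p = 0.0123). ZBTB37, whose row lies 88 bases past that of GAS5, did not reach 1.5-fold (log2 fold change 0.39, adjusted p = 0.0385). The amino acid transporter subunit SLC3A2, 123 bases past SNHG1, had a log2 fold change of -0.32 (adjusted p = 0.0203), opposite in sign to its neighbour. PRSS12, 215 bases past SNHG8, and ZNFX1, whose row overlaps that of ZFAS1 by 249 bases, had log2 fold changes of -0.15 and 0.10 (adjusted p = 0.416 and 0.31), with overlapping groups.

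TRNAU1AP, which overlaps the row of SNHG12 by 6 bases, had a log2 fold change of -0.21 (adjusted p = 0.0596), and on the other side of SNHG12 RAB42 fell (-0.98, adjusted p = 0.00363). SYNCRIP, the nearest tested gene before SNHG5, encodes an RNA-binding protein and had a log2 fold change of -0.37 (adjusted p = 0.0178). CGA, the nearest tested gene after SNHG5 but 1406766 bases away, rose from 4.999, 3.87 and 3.80 normalized counts to 19.6, 14.5 and 17.1 (1.79, adjusted p = 0.00467), at a few reads per control library. NDST3, 20130 bases before SNHG8, rose from at most 23.2 normalized counts in a si-CTRL library to between 43.4 and 60.8 in si-NEK2 (log2 fold change 1.23, adjusted p = 0.00273). FRMD8, the nearest tested gene before MALAT1 outside the NEAT1 row, had a log2 fold change of 0.44 (adjusted p = 0.0821), with overlapping groups. The strand setting of the count is not given in the sources used here, so reads in the bases shared by overlapping genes cannot be told apart.

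Beyond the 8 hosts, 14 of 16 other noncoding snoRNA hosts were tested. Of these, 3 rose and 0 fell, and their median was 0.35 (log2 fold change). At an adjusted p of at most 0.05, 6 were higher and 1 lower, beside 21.8% and 21.3% of all tested genes. The rows of SNHG3, SNHG4 and SNHG20 are shared with the coding genes RCC1, MATR3 and SEC14L1, and those of SNHG4 and SNHG20 are among the 6 higher. SNHG19 rose (log2 fold change 0.88, adjusted p = 0.0491), although its groups overlapped. The row that SNHG20 shares with SEC14L1 rose from 10764, 10342 and 9335 normalized counts to 15045, 14923 and 15881 (log2 fold change 0.59, adjusted p = 0.000282), and which of the 2 genes the reads came from cannot be told. It lost the call with equal total and quantile scaling (0.46 and 0.47). SNHG9 rose by the unadjusted rule (0.65, adjusted p = 0.0703) and was under 1.5-fold with equal totals (0.52). SNHG18, the one at the lower side, had a log2 fold change of -0.38 (adjusted p = 0.021).

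Among other long noncoding RNAs, 26 of 28 were tested, and 1 rose while 3 fell. The median of the list was 0.05 (log2 fold change). TP53TG1 rose (log2 fold change 0.85, adjusted p = 0.00221). LUCAT1 (-1.21, adjusted p = 0.00118), LINC-PINT (-0.61, adjusted p = 0.000912) and, by the unadjusted rule, the row of MIR17HG and its microRNAs (-0.60, adjusted p = 0.0761, and -0.40 with quantile scaling) fell. In this list 6 genes were higher and 6 lower at an adjusted p of at most 0.05, beside 21.8% and 21.3% of all tested genes. NORAD, which binds PUMILIO proteins in the cytoplasm, and OIP5-AS1 stayed under 1.5-fold, with log2 fold changes of 0.54 and 0.56 (adjusted p = 0.00227 and 0.00259).

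Of 17 core proteins and assembly factors of the snoRNPs, the particles in which snoRNAs work, 1 rose and 0 fell. The median log2 fold change was 0.19. At an adjusted p of at most 0.05, 9 were higher and 1 lower, beside 21.8% and 21.3% of all tested genes. The one that rose was ZNHIT3, a box C/D assembly factor (log2 fold change 0.60, adjusted p = 0.000138). It was under 1.5-fold with equal total and quantile scaling (0.48 and 0.53).

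Of 18 factors of nonsense-mediated decay, which degrades RNAs with early stop codons, 1 rose and 0 fell, and the median was 0.20 (log2 fold change). At an adjusted p of at most 0.05, 7 were higher and 0 lower, beside 21.8% and 21.3% of all tested genes. The factor that rose was UPF3B, which links the exon junction complex to UPF2, with 2671, 2021 and 2214 normalized counts in si-CTRL and 3775, 3983 and 3687 in si-NEK2 (log2 fold change 0.74, adjusted p = 0.000605). Of 10 coding mRNAs known as targets of this decay, 1 rose and 0 fell, with a median of 0.06, and 3 were higher and 1 lower at an adjusted p of at most 0.05. The one that rose, the stress transcription factor ATF3, had a log2 fold change of 0.70 (adjusted p = 0.017), and of 0.57 with equal totals, under 1.5-fold.

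Of 16 listed TOP mRNAs, most of them of the translation machinery and none of a ribosomal protein, 1 rose and 1 fell. At an adjusted p of at most 0.05, 10 were higher and 2 lower, beside 21.8% and 21.3% of all tested genes. The median of the 16 was 0.36 (log2 fold change), and it was 0.24 with equal totals and 0.17 with quantile scaling. EEF1A1, the elongation factor, rose from 721028, 737387 and 738257 normalized counts to between 1052550 and 1158950 (log2 fold change 0.60, adjusted p = 0.000321). With equal total and quantile scaling its log2 fold change was 0.48 and 0.19, under 1.5-fold in both. NPM1, a nucleolar chaperone, fell (-0.76, adjusted p = 5.11e-05). The other lower gene was NAP1L1, under 1.5-fold with the deposited scaling (-0.54, adjusted p = 0.000577). Neither of these 2 encodes a translation factor.

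Of 18 paraspeckle proteins, 1 rose and 1 fell, and the median was 0.07 (log2 fold change). At an adjusted p of at most 0.05, 6 were higher and 4 lower, beside 21.8% and 21.3% of all tested genes. TAF15, an RNA-binding protein, rose (0.81, adjusted p = 2.14e-05), and ZC3H6 fell (-1.28, adjusted p = 0.000228). Of 13 speckle scaffold proteins and proteins that process or bind the MALAT1 end, 0 rose and 0 fell, with a median of 0.11. In this list, the genes with the highest means were SON, a core protein of speckles (log2 fold change 0.36, adjusted p = 0.00199), and ELAC2, which trims the small RNA cut from the MALAT1 end (0.14, adjusted p = 0.14). By limma, 4 of the 13 were higher and 1 lower at an adjusted p of at most 0.05.

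Few RNAs without a polyA tail could be tested, with 4 of 17 passing the filter. Of these, 0 rose and 1 fell, and their median log2 fold change was -0.27. The one that fell was TERC, the RNA of telomerase, with 110, 89.1 and 120 normalized counts in si-CTRL and 69.6, 37.1 and 68.3 in si-NEK2 (log2 fold change -0.90, adjusted p = 0.022). By the unadjusted rule, the share of risen genes in each of these lists is to be read against 8.23% of all tested genes, and that of fallen genes against 14.3%. Counts in a list at an adjusted p of at most 0.05 are to be read against 21.8% higher and 21.3% lower.

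**Figure D4:**
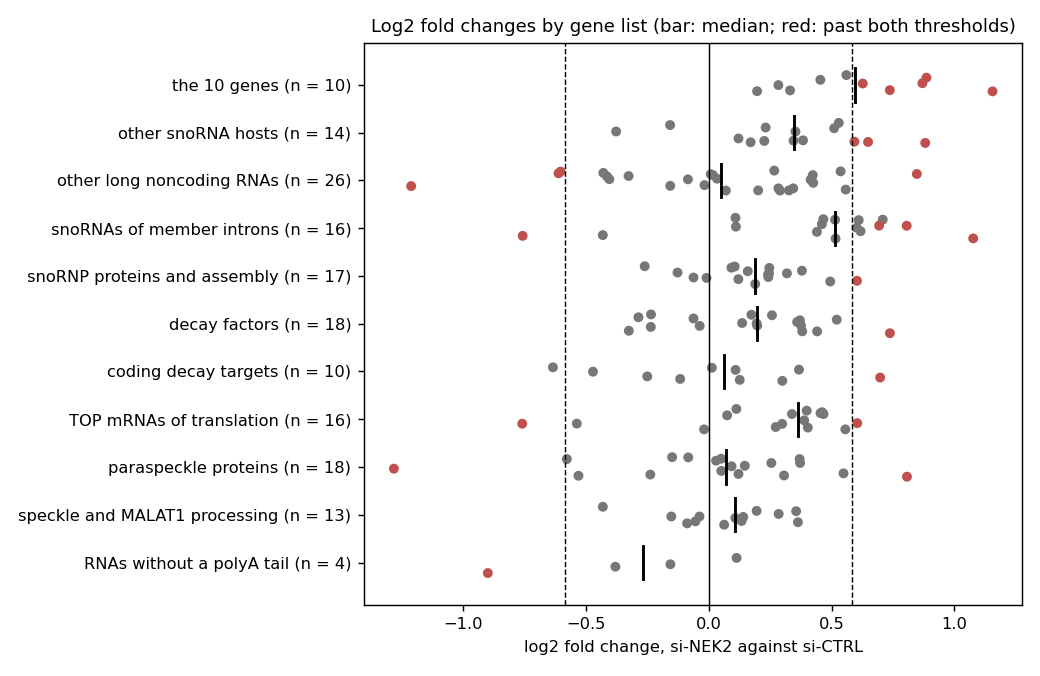
Log2 fold changes in si-NEK2 against si-CTRL (x axis) of the 10 genes and of the tested genes of each list, 1 point per gene, red where both thresholds were passed, with the median as a black bar and the fold change of 1.5 as dashed lines. The median of the 10 genes lies at 0.59 and that of the other snoRNA hosts at 0.35. The vertical scatter within a list carries no value.

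Genes with the most similar profile over the 6 libraries were sought among 12915 tested genes with a symbol and a mean of at least 50, by the Euclidean distance between centred log2 values. For MALAT1 the nearest were PDCD4, a translation inhibitor (distance 0.0555), MYO1E (0.0555) and TGFBR3 (0.0695). For NEAT1 they were DNAJC8 (0.0367), BCLAF1 (0.0421) and AEBP2 (0.0484). For the mean of the 8 hosts they were CDO1 (0.0548), RB1CC1 (0.0728) and ADI1 (0.0867), among 12908 genes. The 6 libraries form 2 groups, so that a like difference between the groups is enough for a short distance.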

How the data were processed

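RNA selected for polyA tails was sequenced in 6 libraries of MDA-MB-231 cells. For each library and gene, the value that the authors deposited is a signal: the reads on the gene over the library's DESeq2 size factor, annotated with FAST DB v2016_1 on hg19, without pooling of replicates. The submitters' processing notes name STAR 2.4.0, SAMtools, Picard, FastQC and DESeq2, while the counter and its strand setting are not given in the sources used here. All values came out as whole reads within 0.01 read, which gave back the reads for edgeR and DESeq2.

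Groups were taken from the sample records. All genes averaging 10 or more normalized counts were fitted with limma 3.58.1 (R 4.3.3; lmFit, eBayes with trend) on log2(value + 1), a scale that understates the change of low genes. Benjamini-Hochberg adjustment ran over all 18717 tested genes. Alternatives were other pseudocounts, filters and scalings, edgeR 4.0.16, DESeq2 1.42.0, a replicate block and leaving out each library. The script was tested on simulated data. The members and gene lists were chosen with earlier results of these data known. All 10 members are named. Of each list, up to 4 genes per direction that passed both thresholds and an adjusted p of at most 0.05 are named, or the 2 with the highest mean. The members' nearest or overlapping genes, NEK2, other hosts whose row is shared with a coding gene and the 3 genes with the nearest profile are also named. Of these neighbours, 1 is not reported here and those with no mention are counted only. Genes that a count of 5 or fewer leaves outside this rule are named with their adjusted p. For NEAT1 no promoter sequence was used here. Intervals between libraries cover neither the siRNA pool nor the culture.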

Additional observations from a re-analysis of the deposited data

How the results depend on the processing

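Each of the 10 log2 fold changes was recomputed under 18 alternatives and kept its sign in all 180 cases. In 176 cases the call was unchanged, MALAT1 lost it with equal total and quantile scaling, and SNHG12 gained it with upper quartile scaling and without si-CTRL replicate 3. Of the 10 genes, 5 were called with limma, edgeR and DESeq2, 6 with upper quartile scaling, and 4 with equal total or quantile scaling. With a fold change of at least 2 in place of 1.5, 1 of the 10 genes and 3 of the list genes were called. Leaving out 1 library gave 5 to 6 called genes, and 5 without si-CTRL replicate 1. The median log2 fold change of the 10 genes was 0.47 with equal totals and 0.48 with quantile scaling, and 0.57 to 0.61 when 1 library was left out. Relative to the median of all tested genes it was 0.58, 0.58 and 0.43 with the deposited, equal total and quantile scaling. Of the list genes, 19 were called (12 higher and 7 lower), against 18 with equal totals (6 and 12), 28 with quantile scaling (20 and 8), 20 with the upper quartile (15 and 5), and 15 to 24 when 1 library was left out. The share of all tested genes called was not counted under these alternatives. The median log2 fold change of all tested genes moved too, from 0.01 to -0.115 (equal totals), 0.0465 (quantile) and 0.047 (upper quartile). The changes in these counts are thus not to be read as particular to the 10 genes or the lists. With equal totals the medians of the other long noncoding RNAs (-0.08), the coding decay targets (-0.07), the paraspeckle proteins (-0.06) and the speckle proteins (-0.02) were below 0, and with quantile scaling that of the paraspeckle proteins (-0.04). Of the medians given, others moved by over 1.5 times with equal totals (other snoRNA hosts 0.22, snoRNP proteins 0.06, decay factors 0.07, TOP mRNAs 0.24) or with quantile scaling (snoRNP proteins 0.11, TOP mRNAs 0.17, other long noncoding RNAs 0.21, coding decay targets 0.02, RNAs without a polyA tail -0.10) or with the upper quartile (other long noncoding RNAs 0.09, coding decay targets 0.10). The difference in the share of reads on the 10 genes, 0.0460 percentage points, ranged from 0.0436 to 0.0495 when 1 library was left out.

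Libraries with the same replicate number did not deviate together (correlations of -0.091, 0.0469 and -0.147). No pairing by number was thus seen, but 3 libraries per group are too few to exclude one. With a replicate block, 5 of the 10 genes and 18 of the list genes were called, and DANCR had an adjusted p of 0.051. Depth limits the snoRNA rows most, where a sum held as few as 8 reads.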
